A study of Mus musculus with 23 samples.

Results

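The comparison set the whole hippocampus beside the dorsal hippocampus of mice that lack Acss2, an enzyme of cytosol and nucleus that turns acetate into acetyl-CoA. It used 7 of the 23 libraries of the series, all from knockout (KO) mice taken straight from the home cage, and all genes that the count tables of both experiments name. The whole group held 2 libraries of freehand-dissected hippocampus, both of batch B0, and the dorsal group held 5 libraries of slices cut in a brain matrix, 3 of batch B2 and 2 of batch B3. All 7 share the C57BL6/J background and a constitutive deletion of exons 3 to 7 of Acss2, made in the embryo, with no driver line. Dissection, experiment and batch change together between the groups and cannot be told apart. Wild-type (WT) home cage libraries from the same experiments, 2 whole and 5 dorsal from batches B1 and B2, were set beside them and share no library with them. In WT, the whole libraries have 0 reads of Y-linked genes that the dorsal ones carry, so there a sex signal also moves with dissection.

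The hippocampus is a curved structure whose long axis runs from a dorsal pole, studied most for spatial memory, to a ventral pole with strong links to amygdala and hypothalamus. Pyramidal cells of fields CA1 to CA3, granule cells of the dentate gyrus and neurons of the subiculum each express different genes along this axis. Pia and its vessels cover the structure, and the choroid plexus of the ventricle lies beside it.

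Levels are given in CPM (counts per 1000000 counts of the library, with library sizes scaled by the trimmed mean of M values, TMM), always as whole library 1 and 2, then dorsal libraries 1 to 5. Differences are log2 values, dorsal minus whole, with ± an approximate standard error. Adjusted p-values come from the two-sided quasi-likelihood test of edgeR with Benjamini-Hochberg adjustment over all genes tested, and a gene was called when this value was under 0.05. No label says that the replicates are separate animals, so these p-values measure the spread between samples. In bulk tissue, fewer cells of a type and less RNA per cell cannot be told apart.

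Read totals were 22261937 to 27205806 in the whole libraries and 14005343 to 23335196 in the dorsal ones, over 24959 gene symbols found in both tables. The first principal component took 64.1% of the variance and ran from -53.7 and -47.8 in the whole libraries to values from 1.22 to 34.7 in the dorsal ones. Acss2 stood at 6.33 and 6.57 CPM in whole KO libraries and at 4.26, 4.61, 3.96, 5.00 and 5.96 CPM in dorsal KO libraries, against 57.7 to 71.9 CPM in the WT libraries of both dissections. Its difference between the KO groups did not pass the test (-0.44 ± 0.19, edgeR adjusted p = 0.0895). Acss2 lies on chromosome 2 at 155517948 to 155585724, plus strand (mm10, GENCODE M21), where Acss2os, Ggt7 and Gss overlap it on the other strand, and the library kit does not mark strand.

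Of 15240 genes tested, 2675 were higher in the dorsal libraries, which is 17.6%, and 2753 were lower, which is 18.1%. With a change of at least 2-fold added to the rule, 360 genes were higher (2.36%) and 1173 were lower (7.7%). The libraries of the groups did not overlap for 8077 genes, or 53%, and these shares are the background for the marker lists that follow. With only 2 whole libraries, each carries much weight: the total of 5428 called genes was 1347 without whole library 1 and 1895 without whole library 2.

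Of the 4 genes that mark the dorsal pole, 2 were higher in the dorsal libraries and 0 lower. Spink8, a serine protease inhibitor gene of dorsal CA1 pyramidal cells, was at 12.4 and 13.2 CPM in whole libraries and at 51.7, 47.4, 32.7, 44.7 and 41.4 CPM in dorsal ones. Every dorsal library lay above both whole ones, a rise of 1.77 ± 0.18 on the log2 scale (edgeR adjusted p = 0.00104), or 1.12 with the offset for transcript length and GC content described below. Lct, the lactase gene that marks dorsal dentate granule cells, was at 35.0 and 45.3 against 61.5, 82.6, 92.7, 82.7 and 65.8 CPM, again without overlap. It rose by 0.94 ± 0.18 (edgeR adjusted p = 0.00507), and missed the threshold without whole library 1 (0.0735). Spink8 lies on chromosome 9 at 109812280 to 109826633, plus strand, and Lct on chromosome 1 at 128284756 to 128328318, minus strand.

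The other members of the dorsal list overlapped between the groups. Ndst4, a heparan sulfate sulfotransferase gene, was at 11.3 and 14.1 CPM in whole libraries and at 9.29, 23.2, 22.4, 30.4 and 26.9 CPM in dorsal ones (0.82 ± 0.36, edgeR adjusted p = 0.106). Wfs1, an endoplasmic reticulum protein gene of dorsal CA1, was at 154.7 and 156.8 against 85.7, 259, 206, 239 and 167 CPM (0.30 ± 0.34, edgeR adjusted p = 0.52). For both genes dorsal library 1 was the lowest of the 7. Without it all 4 members of the list were called higher, with a median of 1.01 in place of 0.88. Leaving it out removes the lowest values of these genes, so the change is not separate support. Wfs1 was called in only 1 of 18 alternatives and Ndst4 in 3 of 18. The list's median was 0.71 without whole library 1 and 1.06 without whole library 2. The median over all genes tested was 0.01.

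**Figure D1:**
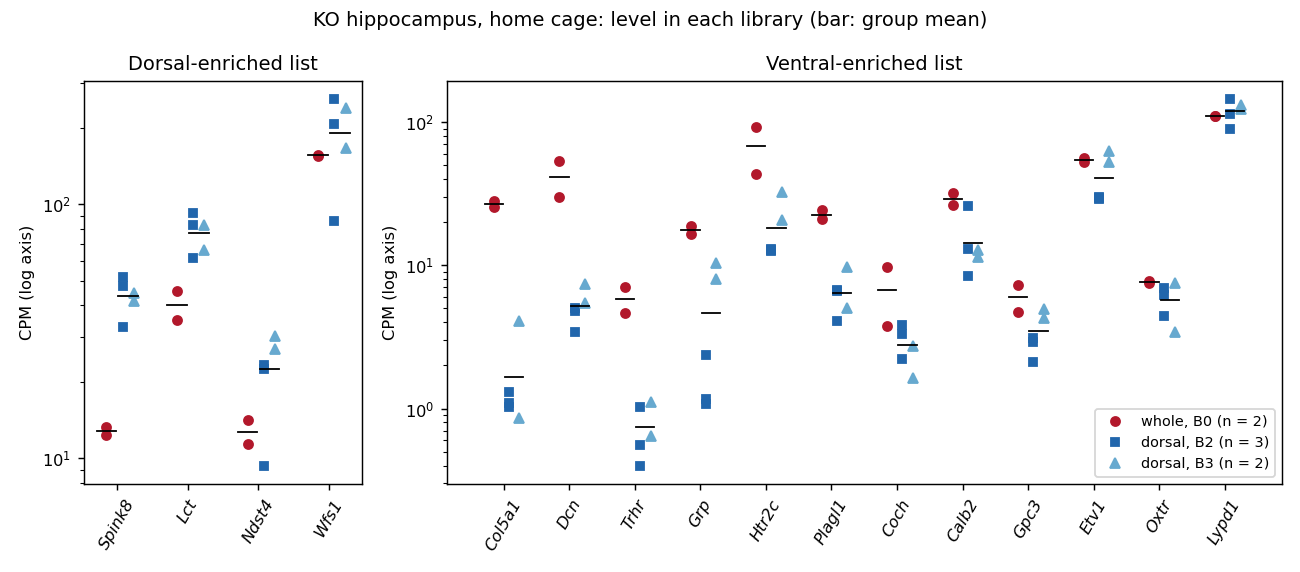
Level of each dorsal-enriched and ventral-enriched gene in the 7 KO libraries, in CPM on a log axis; each point is 1 library, each bar a group mean, and dorsal points are split by batch B2 and B3. Spink8 and Lct lie higher in every dorsal library, most ventral-enriched genes lie lower, and Grp and Etv1 differ between B2 and B3.

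Genes that mark the ventral pole were lower in the dorsal libraries. Of the 12 genes of the ventral list, 8 were called lower and 0 higher, with a median of -1.55. Without whole library 1, 4 of the 12 were called lower and the median was -1.07, and without whole library 2, 6 were called. The WT libraries gave 11 of 12 lower, with a median of -1.70, against a background of 17.2% of the 15189 genes tested there.

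Col5a1, a fibrillar collagen gene, showed the largest difference of the list, from 25.6 and 28.1 CPM to 1.03, 1.09, 1.30, 0.857 and 4.06 CPM (-4.04 ± 0.42, edgeR adjusted p = 0.00104). Its lowest whole library was above its highest dorsal library by several fold. It lies on chromosome 2 at 27886425 to 28039514, plus strand, with 2810430I11Rik and Gm13372 on the other strand. Dcn encodes decorin, a proteoglycan of ventral CA pyramidal cells and of meningeal fibroblasts, and fell from 53.5 and 29.8 CPM to 4.83, 5.06, 3.45, 7.36 and 5.44 CPM (-3.01 ± 0.25, edgeR adjusted p = 0.00063). Dcn belongs also to the fibroblast list, of which 13 of 14 members were lower.

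The receptor genes Trhr and Htr2c of the ventral list were also called lower, while the receptor gene Oxtr was not. Trhr, the receptor for thyrotropin-releasing hormone, was at 7.01 and 4.61 CPM in whole libraries and at 1.03, 0.397, 0.559, 0.643 and 1.11 CPM in dorsal ones (-2.97 ± 0.34, edgeR adjusted p = 0.00131). It lies on chromosome 15 at 44196135 to 44235912, plus strand. Htr2c, a serotonin receptor gene that the choroid plexus also expresses strongly, was at 92.7 and 43.7 against 12.8, 13.0, 12.6, 20.6 and 32.4 CPM (-1.91 ± 0.38, edgeR adjusted p = 0.00541). The higher whole value of Htr2c belongs to the library with the high choroid plexus level given below, and its adjusted p was 0.0857 without that library. The part of the choroid plexus in the Htr2c difference was not tested.

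Plagl1, an imprinted zinc finger gene, fell from 20.9 and 24.2 CPM to 6.67, 4.07, 6.57, 5.00 and 9.76 CPM without overlap (-1.82 ± 0.25, edgeR adjusted p = 0.00194). Coch fell by 1.29 and Calb2 by 1.03, but neither held in every alternative: the largest adjusted p was 0.478 for Coch and 0.206 for Calb2. Gpc3, Oxtr and Etv1 were not called in KO, with edgeR adjusted p = 0.0665, 0.24 and 0.286, although each was called lower in WT. Lypd1 was at 110.0 and 109.8 CPM in whole libraries and at 89.2 to 144.1 CPM in dorsal ones, and was called in neither genotype (KO 0.13 ± 0.16).

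Grp, Nts and Etv1, singled out after their values were seen, lay apart between the dorsal batches, although no such difference passed the test. Grp, the gene of gastrin-releasing peptide, was at 18.8 and 16.6 CPM in whole libraries, at 1.08, 2.38 and 1.16 CPM in the B2 dorsal libraries and at 8.07 and 10.4 CPM in the B3 ones. Its overall difference was -1.996 ± 0.69 (edgeR adjusted p = 0.0483), which is -3.50 with B2 libraries alone and -0.94 with B3 libraries alone, and the call was lost in 7 of 18 alternatives. Nts, the neurotensin gene of the subiculum, was at 5.68 and 6.36 CPM in whole libraries, at 0.770, 1.69 and 0.419 CPM in B2 and at 10.4 and 11 CPM in B3. The direction of Nts therefore depended on the batch: -2.62 with B2 alone (adjusted p = 0.00884) and 0.83 with B3 alone (adjusted p = 0.00626).

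Of 3 subiculum genes tested, 1 was called, 33.3% against 35.6% of all genes. This was Fn1, the fibronectin gene, which is high in the subiculum but not specific to it, and it was lower in both batches. A part of vessels or membranes in the Fn1 difference was not tested. It went from 77.7 and 71.6 CPM in whole libraries to 8.78, 12.7 and 11.3 CPM in B2 and 24.9 and 34.8 CPM in B3 (-2.03 ± 0.42, edgeR adjusted p = 0.00665, or 0.052 without whole library 1). Slc17a6, the vesicular glutamate transporter of subiculum and thalamus, was at 30.3 and 28.6 against 13.2, 6.44, 4.10, 25.6 and 23.1 CPM and was not called (adjusted p = 0.159). The median of the 3 subiculum genes was -2.62 with B2 alone and -0.28 with B3 alone.

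Within the dorsal KO group, 0 of 14702 genes (0%) were called between B3 and B2 by edgeR, DESeq2 called 222, and 1514 reached an unadjusted edgeR p under 0.05. The B3 minus B2 difference was 3.48 ± 0.42 for Nts, 2.57 ± 0.34 for Grp and 0.95 ± 0.13 for Etv1, each with an edgeR adjusted p of 0.0915. For Trhr it was 0.42 ± 0.51, for Plagl1 0.36 ± 0.32, for Spink8 -0.03 ± 0.20 and for Lct -0.09 ± 0.19. The labels give no position of a slice along the axis, and a part of slice position in these differences was not tested.

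Nr2f2, a transcription factor of caudal and ventral hippocampus and of interneurons from the caudal eminence, was at 42.0 and 34.6 CPM in whole libraries and at 9.29, 7.88, 7.73, 8.79 and 12.2 CPM in dorsal ones (-2.07 ± 0.17, edgeR adjusted p = 0.00063). It was called in each of 18 alternatives, from -2.20 to -1.86. Nr2f2 lies on chromosome 7 at 70351944 to 70366735, minus strand, with B130024G19Rik on the other strand. Of the 21 transcription factor genes listed, 4 were higher and 4 lower, and Neurod6, a factor of pyramidal neurons, was among the higher ones (200.4 and 225.5 against 336.5 to 453.3 CPM, 0.85 ± 0.14, edgeR adjusted p = 0.00305). Emx1, a cortical patterning factor, rose by 0.72, a call that held in 16 of 18 alternatives but not with the length and GC offset. The Neurod6 call held in 17 of 18. The median of the 21 listed factors was 0.03, or -0.01 without whole library 1 and 0.02 without whole library 2.

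Genes of fields CA2 and CA3 leaned higher in the dorsal slices. Of 15 members, 7 were higher and 0 lower, and the median was 0.54, against 0.01 for all genes. Rgs14, a signalling regulator of CA2, was at 81.7 and 88.6 against 203.7, 207.2, 264.1, 174.7 and 170.0 CPM (1.26 ± 0.18, edgeR adjusted p = 0.00195), and it was called in each of 18 alternatives. Bok, a BCL2 family gene of CA3, was at 58.2 and 65.2 against 363.0, 242.7, 207.9, 136.2 and 128.9 CPM (1.81 ± 0.39, edgeR adjusted p = 0.00776). Both were higher in each dorsal library, and Bok was highest in dorsal library 1 and higher in all 3 B2 libraries than in both B3 ones. Iyd, the iodotyrosine deiodinase gene, was at 3.61 and 4.22 CPM in whole libraries, at 14.9 to 25.9 CPM in B2 and at 6.86 and 4.39 CPM in B3. Its call (1.83 ± 0.60, edgeR adjusted p = 0.0407) was lost with B3 alone (0.52, adjusted p = 0.138). The median was 0.84 with B2 alone and 0.27 with B3 alone. With either whole library left out, 1 of the 15 members was called.

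CA1 and dentate genes moved in both directions. Of 11 CA1 genes, 3 were higher and 1 was lower, with a median of 0.30, and in WT 1 was higher and 5 were lower, with a median of -0.40. The higher CA1 genes were Spink8, Dkk3 (405.1 and 446.5 against 532.0 to 670.4 CPM, 0.52 ± 0.12) and Lefty1 (7.22 and 8.79 against 14.2 to 25.8 CPM, 1.31 ± 0.22). Fibcd1, a CA1 marker, was at 138 and 155 against 79.7, 192, 170, 215 and 226 CPM in KO and was not called (edgeR adjusted p = 0.542), while in WT its difference was -0.91 (adjusted p = 0.00146). The test of KO minus WT called none of these CA1 genes, but on simulated data it recovered only 60 of 100 genes changed by 1 log2 unit. Without either whole library 2 CA1 genes were higher and 0 lower.

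Of 14 dentate genes, 3 were higher and 2 lower, with a median of 0.07. That median was -0.02 without whole library 1 and 0.15 without whole library 2. C1ql2, a secreted synaptic organizer of granule cells, was at 62.4 and 64.5 against 94.1, 130.8, 121.7, 165.1 and 143.1 CPM (1.04 ± 0.19, edgeR adjusted p = 0.00426). Rfx3, a transcription factor of granule cells, was lower, at 108.6 and 109.1 against 50.3 to 74.7 CPM (-0.83 ± 0.15, edgeR adjusted p = 0.00363). Prox1, the defining factor of granule cells, was at 115.3 and 130 against 76.9 to 119.5 CPM and was not called (edgeR adjusted p = 0.158). Of 8 genes of hilar mossy cells, 2 were higher and 3 lower: Ociad2 rose by 0.43, Calcrl fell by 0.81 and Csf2rb2 by 1.93 (edgeR adjusted p = 0.00874, 0.00451 and 0.00288). Only 1 and 2 mossy cell genes, all lower, were called without whole library 1 and 2. Reln, Ndnf and Car10 of the Cajal-Retzius list were not called, with differences of -0.24, -0.33 and -0.41.

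The neuropeptide genes Penk and Npy were higher in the dorsal libraries. Penk, the precursor of enkephalins, was at 13.2 and 14.3 against 68.8, 55.7, 45.3, 56.3 and 58.5 CPM (2.05 ± 0.17, edgeR adjusted p = 0.00063). It lies on chromosome 4 at 4133531 to 4138819, minus strand, with A830012C17Rik on the other strand. Npy, the gene of neuropeptide Y, was at 16.9 and 18.1 against 63.5, 64.4, 52.0, 55.8 and 46.0 CPM (1.69 ± 0.16, edgeR adjusted p = 0.000809), or 1.08 with the length and GC offset. Penk and Npy were each higher in 5 of 5 dorsal libraries than in both whole ones and were called in each of 18 alternatives.

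Of the 17 interneuron genes, 8 were higher and 0 lower, with a median of 0.43. Crhbp, which binds corticotropin-releasing hormone, was at 21 and 21.8 against 40.5 to 58.6 CPM (1.21 ± 0.15, edgeR adjusted p = 0.00152). Sst, Pvalb and Cck, which name the main interneuron classes, rose by 0.99, 1.08 and 1.42 (edgeR adjusted p = 0.00552, 0.00468 and 0.00308). Lamp5, a membrane protein gene of neurogliaform cells and of superficial neocortex, rose by 0.74. The GABA synthesis genes Gad1 and Gad2 were not called. Calls fell to 4 of 17 without whole library 1 and to 6 without whole library 2. In WT, 6 were higher and 2 lower.

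Of the receptor lists, 40.9% of glutamate, 53.8% of GABA-A and 30.8% of monoamine and neuropeptide receptor genes were called, against 35.6% of all genes. Of 22 glutamate receptor genes, 0 were higher and 9 lower, with a median of -0.25, which was 0.00 with the length and GC offset, where 3 were higher and 7 lower. Lower calls were 2 without whole library 1 and 1 without whole library 2. Grm8 and Grm4, presynaptic metabotropic receptors, fell by 1.18 and 0.91, and Grin3a, an NMDA receptor subunit, by 0.74 (edgeR adjusted p = 0.00911, 0.00856 and 0.0076). Of 13 GABA-A receptor genes, 4 were higher and 3 lower. Gabra5, the extrasynaptic alpha subunit typical of hippocampal pyramidal cells, was at 176.9 and 197.5 against 325.5, 333.1, 362.4, 296.1 and 280.4 CPM (0.77 ± 0.13, edgeR adjusted p = 0.00305). Gabra2 fell by 0.51. The GABA-A calls were 0 without whole library 1 and 1, a higher one, without whole library 2. Of 39 monoamine and neuropeptide receptor genes, 5 were higher and 7 lower, against 0 and 2 without whole library 1 and 0 and 5 without whole library 2. Adra2c, an adrenergic receptor, rose by 0.57. Sstr1, a somatostatin receptor, was at 28.4 and 28.8 against 10.3, 12.1, 9.03, 11.4 and 15.3 CPM (-1.30 ± 0.17, edgeR adjusted p = 0.00162). Tacr3, the neurokinin B receptor, is not in this list but among the genes with the largest differences, and was at 3.61 and 3.24 against 0.411, 0.0991, 0.0931, 0.0714 and 0.262 CPM (-4.14 ± 0.43, edgeR adjusted p = 0.00104).

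Microglial genes were higher in the dorsal libraries almost throughout. Of 14 members, 13 were called higher and 0 lower, with a median of 0.80, against 17.6% higher and a median of 0.01 over all genes. C1qa, a subunit of the first complement component, was at 26.9 and 28.0 against 82.8, 77.9, 54.7, 84.0 and 66.2 CPM (1.41 ± 0.18, edgeR adjusted p = 0.00157). It lies on chromosome 4 at 136895917 to 136898803, minus strand. Trem2, a lipid receptor of microglia, was at 6.98 and 7.08 against 20.3, 20.0, 14.8, 22.6 and 16.4 CPM (1.42 ± 0.18, edgeR adjusted p = 0.00159). Cx3cr1, P2ry12 and Tmem119, which define homeostatic microglia, rose by 0.70, 0.67 and 0.71, and C1qc by 1.30. The list's summed level was 452.5 and 460.3 CPM in whole libraries and 704.7 to 901.3 CPM in dorsal ones. In WT 13 of 14 were also higher, with a median of 0.66, and with the length and GC offset 13 of 14 in KO, with a median of 0.73. Calls fell to 8 without whole library 1 and to 9 without whole library 2.

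Fewer members were called in the lists of other glia. Of 14 astrocyte genes, 3 were higher and 0 lower, with a median of -0.01. Gfap, the intermediate filament of astrocytes, was at 368.7 and 379.1 against 572.4 to 794.2 CPM (0.86 ± 0.14, edgeR adjusted p = 0.00288). Hsd11b1 and Aldoc rose by 1.00 and 0.56. Of 15 oligodendrocyte genes, 4 were higher and 0 lower, and of 10 precursor genes 2 were higher and 3 lower, with 0 of either list called when either whole library was left out. The myelin cell genes Ppp1r14a, Opalin and Gjb1 rose by 1.17, 0.90 and 0.80. Olig1 and C1ql1 rose by 0.47 and 0.59 and Gpr17 fell by 0.48, and the calls of C1ql1 and Gpr17 were lost with the length and GC offset. Of 12 genes of ciliated ependyma, Fam183b was called higher (1.40, edgeR adjusted p = 0.0126, or 0.0559 with that offset), and Ccdc153 and Dnah11 were not called.

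Vascular genes were lower in the dorsal libraries. Of 13 endothelial genes, 10 were lower and 0 higher, with a median of -1.36, and 12 of 13 were lower in WT. Slc2a1, the glucose transporter of the blood-brain barrier, was at 105.9 and 104.5 against 53.1, 42.9, 50.2, 56.7 and 68.5 CPM (-0.96 ± 0.15, edgeR adjusted p = 0.00266). Cdh5, the cadherin of endothelial junctions, was at 14.3 and 11.7 against 3.08, 3.02, 3.82, 4.36 and 7.14 CPM (-1.62 ± 0.29, edgeR adjusted p = 0.0038). Tek, an angiopoietin receptor, fell by 1.58. The blood list had 1 tested gene, Alas2, which was not called (edgeR adjusted p = 0.797). Slc2a1 and Cdh5 were each lowest in a B2 library and highest among dorsal libraries in dorsal library 5. Of 13 pericyte and smooth muscle genes, 8 were lower and 0 higher, with a median of -0.75. Myh11, the smooth muscle myosin, was at 26.4 and 13.3 against 0.924 to 3.73 CPM (-3.18 ± 0.38, edgeR adjusted p = 0.00141), and Notch3 and Tagln fell by 2.09 and 1.84. The endothelial median was -1.85 with B2 libraries alone and -0.88 with B3 alone, and the pericyte and smooth muscle median -1.20 and -0.71. With whole library 1 left out, 5 endothelial and 2 pericyte and smooth muscle genes were called, and without whole library 2, 7 and 6.

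Genes of meningeal fibroblasts fell further. Of 14 members, 13 were lower and 0 higher, with a median of -2.29 in KO and -1.98 in WT. Col1a2, a collagen of fibrous tissue, was at 31.8 and 13.2 against 3.59, 3.77, 3.17, 4.29 and 4.65 CPM (-2.54 ± 0.28, edgeR adjusted p = 0.00122), and Fmod, a proteoglycan, fell by 2.60. The summed level of the list was 779.8 and 468.0 CPM in whole libraries and 194.0 to 333.1 CPM in dorsal ones. Without whole library 1, 8 members were called and the median was -1.32. Of all 41 collagen genes tested, a family picked after their values were seen, 35 were lower and 0 higher, with a median of -2.13, and in WT 33 of 42 were lower and 0 higher. Membranes and vessels thus move with the ventral list, whose Col5a1 and Dcn they also express, and their part in it was not tested.

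**Figure D2:**
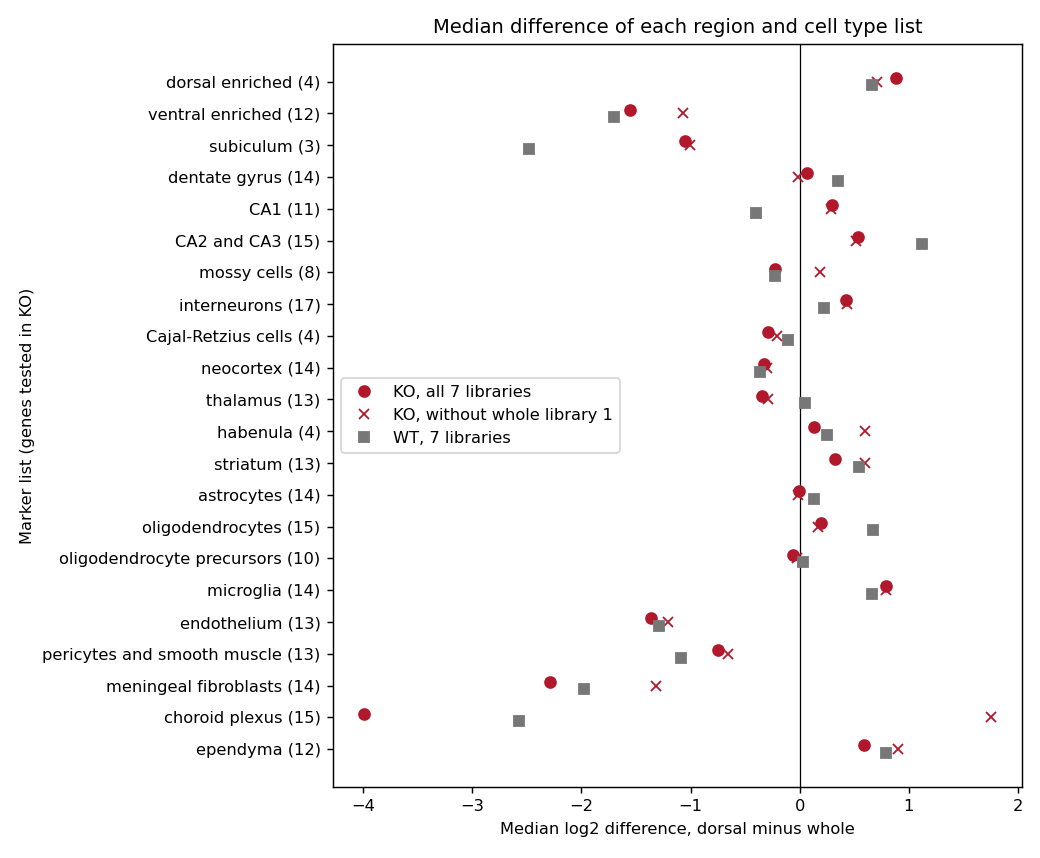
Median log2 difference, dorsal minus whole, of each region and cell type list in KO (circles), in KO without whole library 1 (crosses) and in WT (squares), with the number of genes tested in KO in brackets. Microglia lie near 0.80, endothelium near -1.36 and meningeal fibroblasts near -2.29 in KO, and the choroid plexus median moves from -3.99 to 1.75 when whole library 1 is left out.

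The choroid plexus list rested on 1 library. Of 15 members, 13 were called lower with a median of -3.99, but the summed level was 4049 CPM in whole library 1 and 38.5 CPM in whole library 2, with 82.5 to 266.6 CPM in the dorsal libraries. Ttr, the transthyretin gene, made up most of it, with 3687 and 7.68 CPM by unscaled library totals in whole libraries and 37.3 to 199.1 in dorsal ones. Without whole library 1 the list's median was 1.75. Kcnj13, a potassium channel gene, then changed from -4.37 to 0.28 (edgeR adjusted p = 0.786) and Cldn2, a claudin gene, from -4.44 to 0.12 (0.931). Prlr, the prolactin receptor gene, was at 54.1 and 4.69 against 1.83 to 2.98 CPM (-3.53, edgeR adjusted p = 0.00393). The same split occurred in the other whole groups, where 1 library of each pair had 880.2 or 2352 CPM of Ttr and the other 13.3 or 8.04.

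**Figure D3:**
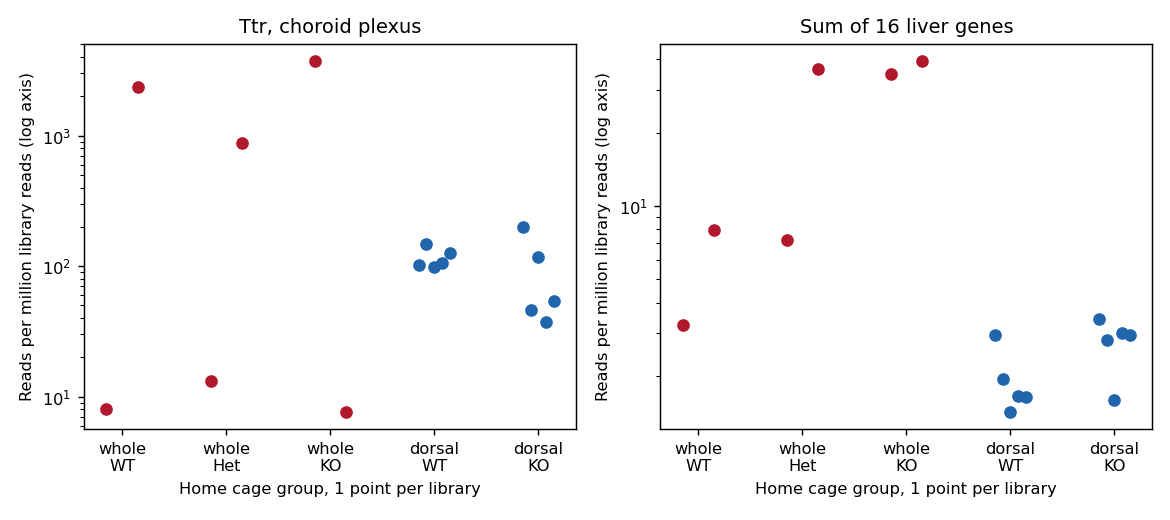
CPM by unscaled library totals, on a log axis, of Ttr and of 16 liver genes together, with 1 point for each home cage library. Ttr is high in 1 library of each whole pair, and both whole KO libraries have more liver reads (34.8 and 39.2) than any dorsal KO library (1.59 to 3.41).

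Liver transcripts were also found in whole KO libraries, in a list of 16 genes picked after their values were seen. They made up 34.8 and 39.2 CPM by unscaled library totals in whole KO libraries and 1.59 to 3.41 in dorsal KO libraries. One whole library of the heterozygous (Het) group had 36.5, and the other whole libraries had 3.22 to 7.92. Alb, the serum albumin gene, had 870 reads in the whole KO libraries and 2 in the dorsal ones, a ratio per library read of 745 with a 95% counting interval from 205 to 6160. Ahsg and Gc had 86 and 81 reads in whole KO libraries and 0 in dorsal ones, which is at least 9.81-fold and 9.24-fold lower with 3 counts allowed per dorsal library. Such intervals and floors cover counting error only. Where these reads come from was not tested.

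Marker lists of tissue next to the hippocampus gave no common direction, although the neocortex list leaned lower. Of 13 thalamus genes, 2 were higher and 5 lower, against 1 and 1 without whole library 1 and 0 and 2 without whole library 2. Lef1, a factor of Wnt signalling, was at 6.64 and 5.97 against 1.30 to 2.29 CPM (-1.91 ± 0.22, edgeR adjusted p = 0.00134) and was called in each of 18 alternatives. Tnnt1 rose by 1.49 and Ntng1, an axon guidance gene, fell by 0.58 (0.0089 and 0.0127), the latter not called with the length and GC offset. Prkcd was at 28.9 and 21.9 against 107, 52.4, 79.8, 26.3 and 22.3 CPM, high in B2 only, and was not called (edgeR adjusted p = 0.128). Of 14 neocortex genes, 2 were higher and 4 lower, with 11 below 0, 3 above 0 and a median of -0.33. In WT, 2 neocortex genes were higher and 7 lower, with a median of -0.37. Otof was at 8.20 and 8.41 against 0.744 to 1.83 CPM (-2.70 ± 0.28, edgeR adjusted p = 0.00104) and Cux2 at -1.04. Of 13 striatum genes, 1 was higher, Penk, and 1 was lower, Rgs9, and Syndig1l was not called (edgeR adjusted p = 0.0576). Of 4 habenula genes, Nr4a2 was lower (-0.84, edgeR adjusted p = 0.025), and Tac2 and Gpr151 were not called.

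Genes that respond to glucocorticoids were mostly lower in the dorsal libraries. Of 18 members, 10 were lower and 1 higher, with a median of -0.48 in KO and in WT. Sgk1, a kinase gene induced by the receptor, was at 178.1 and 153.8 against 85.0, 66.2, 76.8, 63.3 and 86.5 CPM (-1.13 ± 0.14, edgeR adjusted p = 0.00141), and Per1, a clock gene, was at 96.0 and 101.1 against 37.1 to 58.6 CPM (-0.94 ± 0.15, edgeR adjusted p = 0.00288). Arrdc2 fell by 0.96. Mt1, a metallothionein gene, was the higher one (1.00). Sgk1 is expressed by oligodendrocytes and endothelium too. Lower calls were 5 without whole library 1 and 6 without whole library 2.

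Rapid activity-induced genes were split, 4 higher and 4 lower of 26, with a median of -0.01. Bdnf, the neurotrophin gene, rose by 0.78 and Fosl2 fell by 1.18 (edgeR adjusted p = 0.00468 and 0.007). Klf4 and Sik1 fell by 1.99 and 1.44. In WT 1 was higher and 17 were lower, with a median of -0.98, and the test of KO minus WT called none of the 26. The heat shock list also holds the cold shock genes Cirbp and Rbm3, and of its 10 members 5 were higher and 1 lower. Hspa8 was at 298.4 and 296.2 against 412.5 to 547.6 CPM (0.65 ± 0.13, edgeR adjusted p = 0.00665), and Hspa1a and Hspa1b rose by 1.03 and 0.84. Of 17 Wnt pathway genes, 2 were higher and 5 lower, among them Axin2 and Fzd1 (-0.76 and -0.64), and without whole library 1 the calls were 0 higher and 1 lower. Heat shock calls were 1 higher and 0 lower without either whole library, and rapid activity-induced calls 0 higher and 3 lower without whole library 1.

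In the pathway of Acss2 itself, 1 of 22 acetyl-CoA genes was higher and 2 were lower, 13.6% against 35.6% of all genes. Acot7, a thioesterase, rose by 0.72, Slc27a1, a fatty acid transporter, fell by 0.63, and Acacb, an acetyl-CoA carboxylase, fell by 1.22 (edgeR adjusted p = 0.00288, 0.00291 and 0.00978). Of 22 histone acetylation genes, 1 was higher and 7 lower, but only 1 was lower without either whole library, and 3 with 2 higher under the length and GC offset. Hdac7, a deacetylase that endothelium expresses, was at 31.2 and 34.0 against 8.88, 7.73, 10.4, 11.8 and 15 CPM (-1.61 ± 0.20, edgeR adjusted p = 0.00159). Among the acetyltransferases, Kat5 was the higher gene (0.34 ± 0.09, edgeR adjusted p = 0.0182), and Crebbp and Ep300 fell by 0.69 and 0.47 (0.0469 and 0.0451). Hdac1, a deacetylase, fell by 0.60 (0.0214).

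The nuclear long noncoding RNAs Meg3 and Malat1 were lower in the dorsal libraries. Meg3, an imprinted noncoding gene of neurons, was at 4366 and 5057 CPM in whole libraries and at 230.9, 147.4, 178.1, 399.0 and 784.1 CPM in dorsal ones (-3.76 ± 0.53, edgeR adjusted p = 0.00195). It lies on chromosome 12 at 109541001 to 109571726, plus strand, with Gm26906 on the other strand. In a list of 10 such RNAs picked after their values were seen, 9 were lower and 0 higher, with a median of -2.54, and 6 of 10 were lower in WT. With the length and GC offset 7 were lower and 1 higher, and 7 and 6 were lower without whole library 1 and 2. Among the called members Rian had the smallest difference (-0.67). Malat1 was at 2562 and 2820 against 477.6, 261.1, 188.3, 272.8 and 365.0 CPM (-3.10 ± 0.27, edgeR adjusted p = 0.000656). Peg13 overlapped between the groups, at 246.8 and 250.6 against 215.3 to 331.0 CPM. The median of the 10 was -3.00 with B2 alone and -1.74 with B3 alone. In WT, Malat1 was at 2608 and 2375 CPM in whole libraries, 1463 and 1239 in dorsal B1 and 209.7 to 335.9 in dorsal B2. Snhg14 was at 66.8 and 62.7 CPM in WT whole libraries, 60.9 and 59.0 in dorsal B1 and 19.2 to 23.7 in dorsal B2. Peg13 was instead lower in B1 (240.1 and 201.2) than in B2 (265.2 to 311.5). A part of batch in the difference of these RNAs was not tested.

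The difference followed transcript length across genes. In the tenth of genes with the shortest longest transcript (median 1028 nt), the median difference was 0.58, with 46.1% called higher and 7.01% lower. In the tenth with the longest (median 8371 nt), it was -0.30, with 2.12% higher and 33.5% lower. Spearman's rho across 15122 genes, which are not independent replicates, was -0.415 with length and 0.06 with GC content. In WT the median went from 0.29 to -0.07, and between the dorsal batches in KO from -0.07 to -0.05. The WT dorsal libraries pool B1 and B2, and the KO batch comparison does not cover B1. A part of batch in the length trend was not tested. Ribosomal protein genes, which are short and have near-identical pseudogene copies, were higher in 58 of 85 cases and lower in 1, with a median of 0.87. Of 88 oxidative phosphorylation genes, a family picked after their values were seen, 73 were higher and 0 lower, with a median of 0.89. Higher calls fell to 19 and 21 in these families without whole library 1, and to 23 and 20 without whole library 2. Rpl29 and Rpl4 rose by 1.23 and 0.84, and of 13 histone genes 4 were higher and 0 lower, among them Hist1h2bc, Hist3h2ba and Hist3h2a (1.09, 0.98 and 0.62).

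An offset for length and GC content, chosen after seeing the data, left 5681 genes called, of which 4194 were called in the same direction without it. Medians of the ribosomal and oxidative phosphorylation genes were then 0.42 and 0.44. The ventral list kept a median of -1.50 with 9 of 12 lower, and the dorsal list one of 1.098 with 3 of 4 higher.

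**Figure D4:**
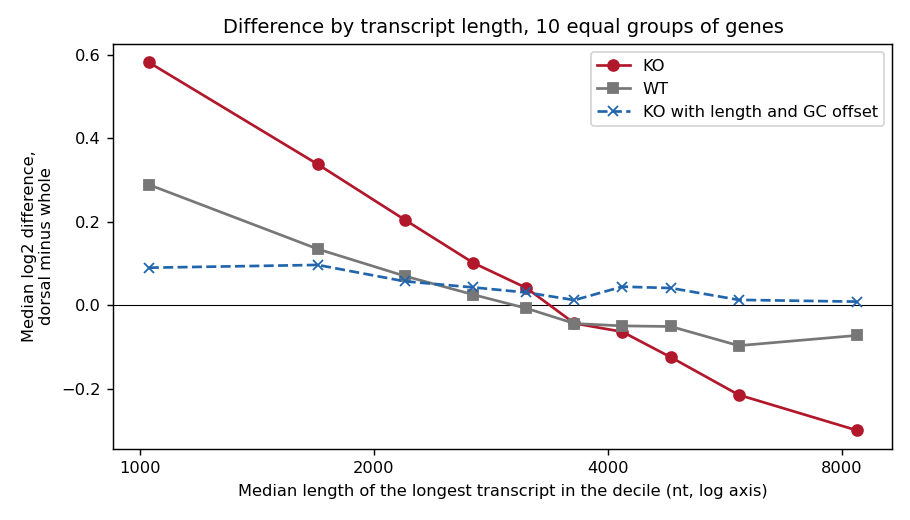
Median log2 difference, dorsal minus whole, in 10 equal groups of genes ordered by the length of the longest transcript (nt, log axis), for KO, WT and KO with the length and GC offset. The KO line falls from 0.58 to -0.30, the WT line from 0.29 to -0.07, and the offset line stays between 0.01 and 0.10.

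Among the other genes with large differences, Klk8, a serine protease gene of CA1 and CA3 neurons, was at 7.999 and 9.22 against 38.7, 35.2, 25.6, 26.7 and 23.8 CPM (1.81 ± 0.22, edgeR adjusted p = 0.00143). Pla2g2f, a secreted phospholipase gene, was at 1.43 and 2.22 against 4.58 to 8.01 CPM, and Cldn22, Mafa, Klk10 and Frem3 also rose at low levels. Of these, Klk10, Mafa and Frem3 were not called with B3 libraries alone. On the other side, Col6a1, a collagen VI subunit, was at 28.3 and 34.6 against 2.16, 1.68, 1.21, 1.86 and 3.80 CPM (-3.90 ± 0.29, edgeR adjusted p = 0.000468). Glp2r, the receptor for glucagon-like peptide 2, was at 6.30 and 5.89 against 0.205 to 1.11 CPM (-3.60 ± 0.42, edgeR adjusted p = 0.00141), and Tnfrsf25 at 26.7 and 32.05 against 0.838 to 4.52 CPM. In each of these 3 lower genes no dorsal library reached a whole one. Further genes with large differences were Col24a1, Col4a3, Trpv6, Tm6sf2 and Mir3072 on the lower side, from -5.47 to -3.59 with at most 0.429 CPM in a dorsal library, and Cox16 and Mir6236 on the higher side (2.17 and 2.56), with at most 0.683 CPM in a whole library. Of 273 predicted genes, 20 were higher and 40 lower, among them Gm14827, Gm10654 and Gm36117 (-3.82, -1.96 and -1.49).

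The same contrast in WT libraries gave the same direction for most genes. Of 15189 genes tested, 2125 were higher (14%) and 2618 lower (17.2%). Among 15022 genes tested in both genotypes, 2983 were called in both in the same direction, which is 55.6% of the KO calls and 63.4% of the WT calls, and 6 in opposite directions. Of the genes called in KO, 96% had the same sign in WT, against 80.4% of all genes. Pearson's r across genes was 0.805 and Spearman's rho 0.796, as a description, since genes are not independent replicates and both contrasts come from the same pair of experiments. Nr2f2 was -2.07 in KO and -2.41 in WT, Trhr -2.97 and -3.64, Spink8 1.77 and 0.92, and Penk 2.05 and 1.67.

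**Figure D5:**
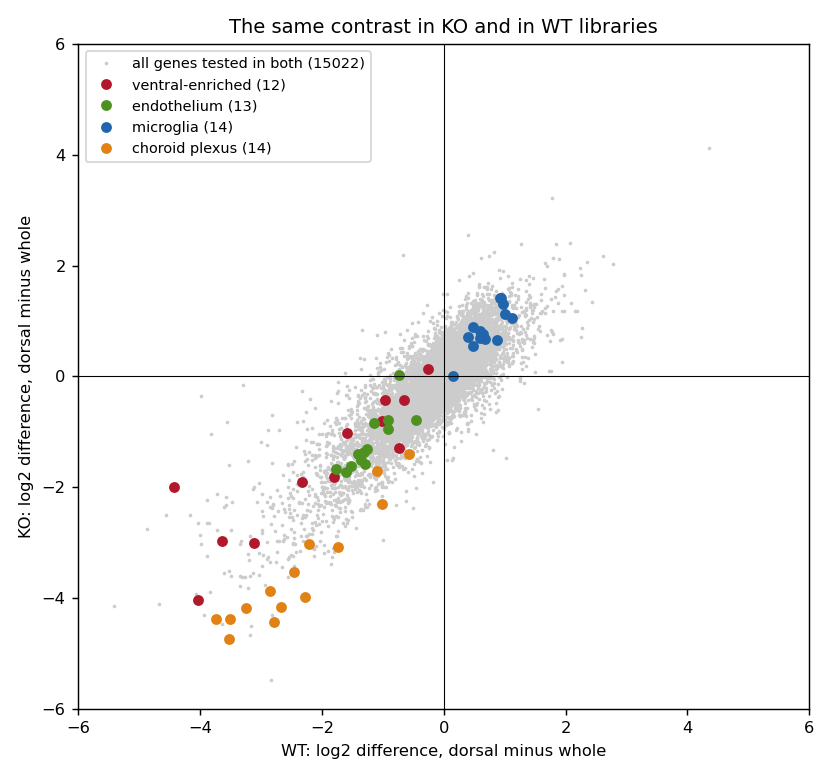
Log2 difference, dorsal minus whole, in KO (vertical) and WT (horizontal) libraries for each gene tested in both, with 4 marker lists in colour; 5 genes lie outside the axes. Ventral-enriched, endothelial and choroid plexus genes lie mostly below 0 on both axes and microglial genes above. Ttr, which made up most of the choroid plexus level in KO, was high in only 1 whole library of each genotype.

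The difference between the KO and the WT contrast was tested over 14 libraries. Of 15564 genes, 4 were called (0.0257%), all on chromosome Y, DESeq2 called 30, and 1360 reached an unadjusted edgeR p under 0.05. The 4 genes were Ddx3y, Uty, Kdm5d and Eif2s3y. Kdm5d was at 0 CPM in both whole WT libraries and at 15.7 to 32.9 CPM in every KO and dorsal WT library, so these calls follow the whole WT libraries. Within KO, Kdm5d and Eif2s3y were lower in dorsal libraries by 0.73 and 0.91 on the log2 scale (edgeR adjusted p = 0.00526 and 0.00723).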

How the data were processed

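Polyadenylated RNA of the 7 KO home cage libraries, and of the 7 WT ones for comparison, was analysed from raw read counts for each gene symbol, deposited by the authors as 1 table for each of 2 experiments. The build mm10 and the tools HTSeq 0.9.1, STAR, SAMtools 1.1, limma and DESeq2 are listed in the submitters' processing notes with no role; their annotation was not named there. Per the labels' protocols, libraries were made with a kit that does not mark strand. The tables hold 24985 symbols each, and 26 dorsal symbols had become dates, which left 24959 joined; every count column belongs to a labelled sample. Tests used edgeR 4.0.16 in R 4.3.3 with TMM factors, filterByExpr (count minimum 10, total minimum 15) and a term for group, with 5 residual degrees of freedom in KO. The approximate standard error is the size of the log2 difference divided by the square root of F. DESeq2 1.42.0, other scalings and filters, left-out libraries, single batches and a replicate block were alternatives. The length and GC offset (mgcv 1.9.3, GENCODE M21, 99.2% of tested genes) was chosen after seeing the data. The comparison, its members and the 37 gene lists were chosen with earlier results of these data known. Named by rule are Acss2, all dorsal-enriched and ventral-enriched genes, the 3 members with the smallest p of each other list, and in each direction the 12 genes with the largest difference among called genes without overlap and with at least 2 CPM in the higher group; other genes named as list members, and the collagen, liver, oxidative phosphorylation and nuclear RNA lists, were chosen after their values were seen. Some genes that the rule selects are not reported here. On simulated data for the KO comparison (15013 genes), 90 of 100 genes changed by 1 log2 unit and 99 of 100 changed by 2 were recovered, with 7 false calls. For KO minus WT (15308 genes), 60 of 100 changed by 1 and 100 of 100 changed by 2 were recovered, with 8 false calls. In each simulation the 200 changed genes had a mean above 5 CPM, so the recovery rates do not cover genes of lower level. Library pairs of a KO group differed by more than sampling noise.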

Additional observations from a re-analysis of the deposited data

Results flagged for a closer look

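Among the named genes, 12 of 132 sets of 5 dorsal KO libraries held 1 library far from the others, where chance gives about 1 in 20. Dorsal library 1 stood apart for Calb2 (25.8 CPM), Reln (49.4), Fam183b (12.2), Ccdc153 (29.8) and Per1 (37.1). Dorsal library 5 stood apart for Col5a1 (4.06 CPM), Mir3072 (0.393), Tek (10.6) and Gm14827 (1.24). Dorsal library 4 stood apart for Ndnf (14.3 CPM) and Alas2 (8), and dorsal library 3 for Car10 (46.5 CPM). Reln and Per1 were low there and the rest high.

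The dorsal minus whole difference was lower in KO than in WT, by the interaction test, for Kdm5d (-12.63), Eif2s3y (-13.21) and Uty (-11.78), Y-linked genes with 0 CPM in both whole WT libraries.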

How the results depend on the processing

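Over all the alternatives, the median difference of all genes stayed between -0.03 and 0.04. Leaving out 1 library at a time gave 1347 to 6118 called genes in KO (454 to 3056 higher, 893 to 3062 lower), 1229 to 5564 in WT, 4 to 8 for KO minus WT and 0 to 30 for B3 minus B2. Where 1 whole library is left, it is assumed to vary like the dorsal ones. The KO counts moved most without whole KO library 1 (1347) or 2 (1895), and the WT count without whole WT library 1 (1386) or 2 (1229). KO minus WT called 8 genes without dorsal KO library 1 or 3 and 30 by DESeq2. B3 minus B2 called 222 genes by DESeq2, 49 without a filter, 30 without dorsal library 1 and 5 without dorsal library 2 or 3. The WT contrast called 7153 genes with B2 dorsal libraries alone. The groups share replicate numbers 1 and 2, but come from different experiments, so the numbers only name samples. Same-numbered libraries correlated at 0.253 and 0.147 in their deviations from the group means. With 2 whole libraries these deviations mirror each other, so the 2 values are not independent. Whole library 2 correlated at 0.13 with dorsal library 3, so no pairing can be read from them. With the replicate number as a block the KO contrast called 8276 genes (3995 higher, 4281 lower), WT 4781 and KO minus WT 4. Whole libraries exist only for numbers 1 and 2, so the blocked KO and WT contrasts rest on those numbers alone. Very few residual degrees of freedom are left in these 2 fits, and their counts are weak evidence of stability. Directions reversed for Nts with B3 alone (0.83). They also reversed for Kcnj13 (-5.34 to 0.28) and Cldn2 (-5.397 to 0.12) over the left-out libraries. Both were above 0 only without whole KO library 1. Genes not called in the main fit also crossed 0 in some alternative. Of these, Wfs1 (down to -0.05), Etv1 (up to 0.07) and Reln (up to 0.12) were each called in at least 1 other alternative. Tac2 (down to -0.03) and Alas2 (up to 0.27) were called in none. Of 114 called named genes, 61 passed in every alternative, 53 were lost in at least 1 and 7 with the length and GC offset. The cause was not tested. Depth limits genes of few reads, such as the liver genes at 0 in dorsal libraries.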
